A study of Homo sapiens with 12 samples.

Results

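The 14-3-3 proteins are a family of small acidic adaptors that dimerise and dock onto phosphorylated serine or threonine motifs of client proteins, and by docking they can hold a client in the cytoplasm, mask a site on it or keep an enzyme in 1 state. Growth-signalling kinases, cell cycle phosphatases, pro-apoptotic factors and transcription regulators are among their clients, and the genes of the family are expressed side by side in most cells, so that the isoforms form mixed dimers. The 7 human genes were taken by name: YWHAB (beta), YWHAE (epsilon), YWHAG (gamma), YWHAH (eta), YWHAQ (theta), YWHAZ (zeta) and SFN (sigma). They are 7 of the 59385 gene names counted, and all 7 passed the filter on low counts that kept 18166 names for testing.

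The study sequenced poly(A)-enriched RNA, total or polysome-associated, of HEK293T cells, a line derived from human embryonic kidney, grown in DMEM with 10% fetal bovine serum. The control cells (shCtrl) carried a Dox-inducible non-silencing shRNA, the knockdown cells (shPRRC2B) a Dox-inducible shRNA against PRRC2B, an RNA-binding protein, and per the study's methods both were harvested 36 h after Dox was added. Polysome RNA was the pool of gradient fractions 6 to 10, taken after cycloheximide treatment, and each of the 4 combinations of line and fraction had 3 libraries labelled as biological replicates. Each line was a stable single clone, so the shRNA and the clone cannot be told apart.

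The 12 libraries held between 9855734 and 20837542 counts. PRRC2B itself stood at 281 ± 28.7 CPM in total RNA of shCtrl cells and at 100.3 ± 2.32 CPM in shPRRC2B cells (SD, n = 3 each), and its groups did not overlap. Of 9 marker genes of HEK293T cells, 8 were counted in every library, the exception being LHX1 with 0 to 7 counts, and 4 markers of leukocytes, endothelium and hepatocytes had at most 5 counts in any library. CPM here are counts scaled to library sizes after TMM, the step that lines up the bulk of the genes between libraries.

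The study's PAR-CLIP lists, which place crosslinked PRRC2B on RNA, single out 1 member. YWHAZ (chromosome 8, 100916523 to 100953388, minus strand, GRCh38) has a site of full-length PRRC2B from 100919493 to 100919592 and a site of the P2 fragment from 100919487 to 100919586. Both lie in exon 6, in the 3' UTR, starting 1101 and 1107 nt after the stop codon, and 57 and 60 of their 100 bases are C or T. YWHAZ is the only member in the list of bound mRNAs, which required both baits. YWHAQ (chromosome 2, 9583967 to 9630997, minus strand) has a full-length site alone, from 9630187 to 9630286, in exon 2. That site lies in the CDS, covers positions 167 to 266 counted from the start codon, and 59 of its 100 bases are A or G. No site is listed for YWHAB (chromosome 20), YWHAE (chromosome 17), YWHAG (chromosome 7), YWHAH (chromosome 22) or SFN (chromosome 1).

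Reads of the members can be told apart over most of their length. Aligned CDS identity lay between 62.3% (YWHAE with SFN) and 78.8% (YWHAG with YWHAH), YWHAZ was nearest to YWHAB with 74.8%, and the longest run that any pair of transcripts shared was 39 nt, between YWHAG and YWHAH. The CDS are of nearly one size, 738 to 768 nt, and the transcripts differ mostly in the 3' UTR. Canonical transcripts (GENCODE 44) measure 5011 nt for YWHAZ with a 3' UTR of 4170 nt, 3705 nt for YWHAG (3' UTR 2778 nt) and 3020 nt for YWHAB (3' UTR 2094 nt). The shorter members are YWHAQ with 2196 nt, YWHAE with 2052 nt, YWHAH with 1751 nt and SFN, which has 1 exon, with 1308 nt.

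**Figure D1:**
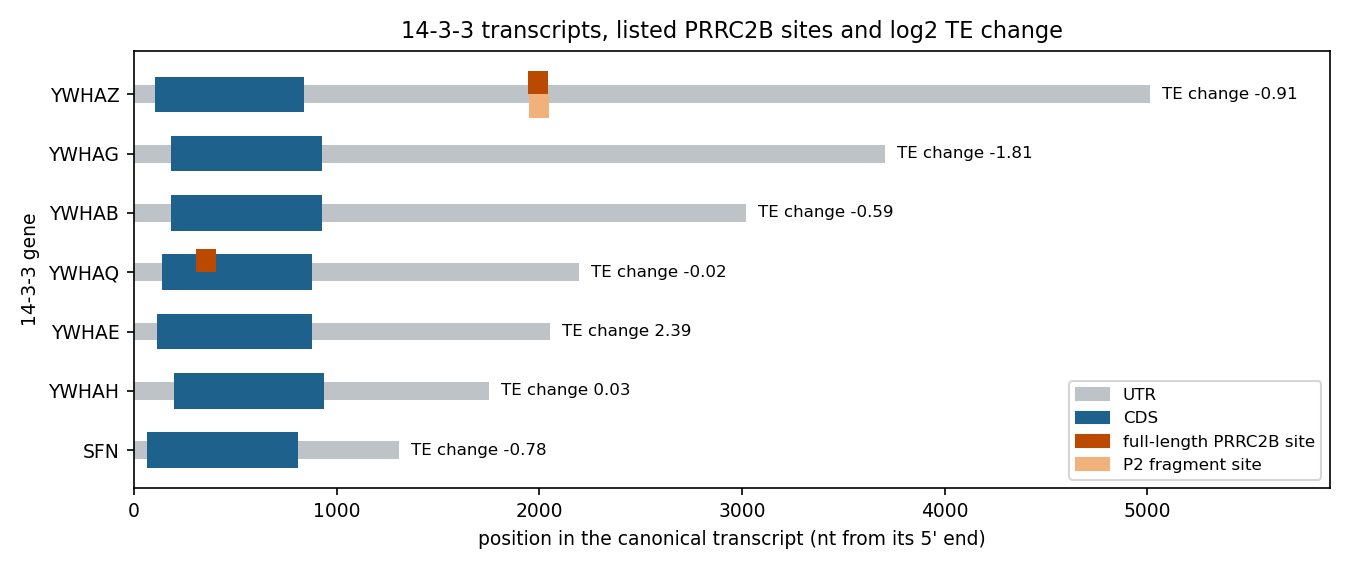
Canonical transcripts of the 7 genes drawn to scale in nt from the 5′ end, with UTRs in grey, CDS in blue, the listed site of full-length PRRC2B in dark orange and that of the P2 fragment in light orange; the number at each bar is the log2 TE change between the lines. The 2 sites of YWHAZ nearly coincide in its 3' UTR, the YWHAQ site lies in the CDS, and the 3 longest transcripts carry values of -0.91, -1.81 and -0.59.

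The CDS under the YWHAQ site is one that the paralogs share in part, so the stretch of 30 bases with the most A or G in the site is shown with the aligned stretches of 5 paralogs (GRCh38 reference, 5′ to 3′, on the strand of each gene). The aligned stretch of YWHAZ is not reported here. Capitals mark bases that differ from YWHAQ.
YWHAQ (chr2:9630194-9630223, minus strand): agctgattaaggactatcgggagaaagtgg
YWHAB (chr20:44901769-44901798, plus strand): agAtgGGCaaAgaGtaCcgTgagaaGAtAg
YWHAE (chr17:1362005-1364884, minus strand, joined over an intron): aAAtgattCGggaAtatcggCaAaTGgtTg
YWHAG (chr7:76330053-76330082, minus strand): agAtgGtCCGTgCGtaCcgggagaaGAtAg
YWHAH (chr22:31956290-31956319, plus strand): agAAAGttaaAgCTtaCcgggagaaGAtTg
SFN (chr1:26863448-26863477, plus strand): CCGAgGtGCGTgaGtaCcgggagaaGgtgg
Between 18 and 20 of the 30 bases equal YWHAQ in each paralog shown, and the A or G count is 21 in YWHAQ, 23 in YWHAB and 19 to 21 in the other members shown.

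In shCtrl total RNA, the 14-3-3 mRNAs together made up 1226 ± 34.2 CPM (SD, n = 3). Per kb of canonical transcript, YWHAQ stood highest at 124 ± 0.943 CPM per kb, followed by YWHAZ at 101 ± 2.89, YWHAB at 62.4 ± 4.60, YWHAH at 49.3 ± 2.42 and YWHAG at 44.5 ± 0.581. YWHAE followed at 2.90 ± 1.09 and SFN at 0.251 ± 0.176 CPM per kb. No neighbours in this order overlapped in their 3 libraries. The places of YWHAB and YWHAG were exchanged when the summed length of all annotated exons was used as the length.

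In shPRRC2B polysome RNA the order per kb was different. YWHAQ led at 184 ± 37.0 CPM per kb, YWHAH came second at 95.5 ± 9.32, and YWHAZ (55.5 ± 18.03) and YWHAB (46.7 ± 10.9) overlapped. YWHAG stood at 3.84 ± 1.55 CPM per kb and overlapped both YWHAE (10.00 ± 13.3) and SFN (1.82 ± 0.960). In shCtrl polysome RNA, YWHAZ (80.8 ± 21.0 CPM per kb) had overlapped YWHAH (71.1 ± 8.66) and YWHAG had stood apart at 9.76 ± 2.46, between YWHAB at 48.2 ± 11.1 and YWHAE at 2.27 ± 1.34. In shPRRC2B total RNA the order of shCtrl total RNA recurred, except that YWHAH (65.0 ± 1.25 CPM per kb) and YWHAG (61.4 ± 4.16) overlapped.

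**Figure D2:**
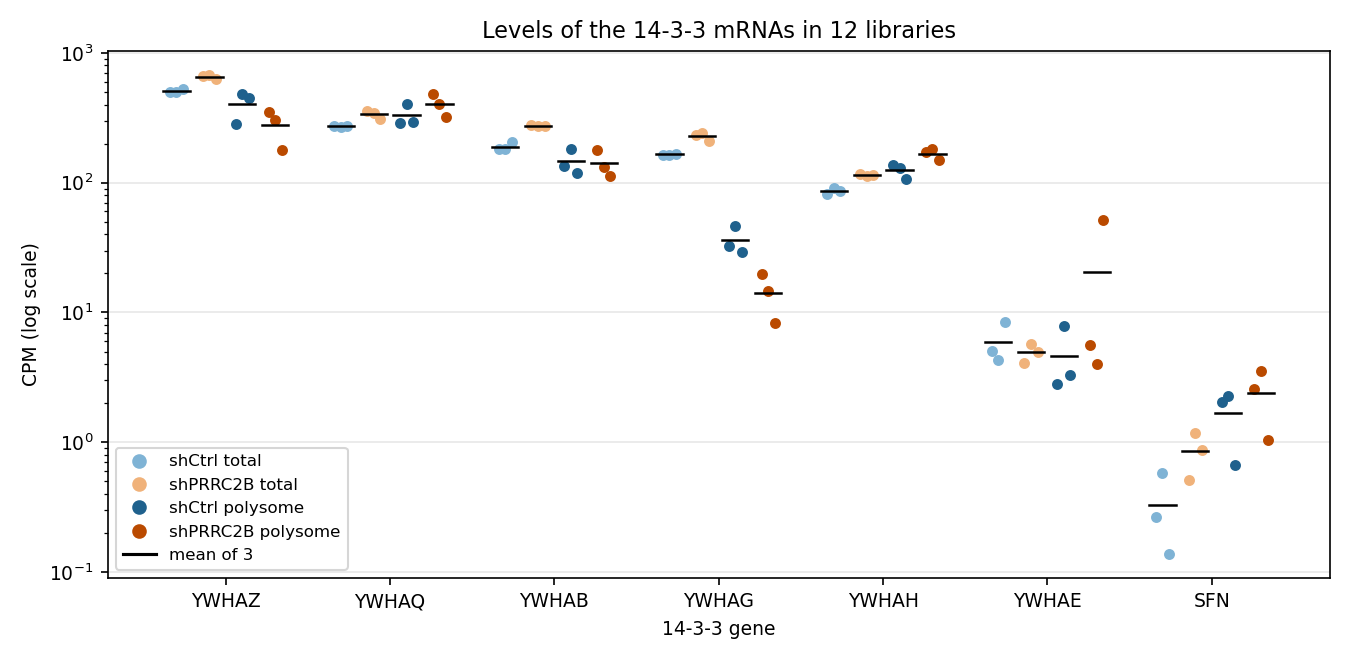
CPM of each 14-3-3 gene (log axis) in the 12 libraries, 3 points per group of line and fraction, with the group mean as a bar. YWHAG falls from 163 to 167 CPM in shCtrl total RNA to 8.28 to 19.8 CPM in shPRRC2B polysome RNA, and 1 YWHAE point, at 51.9 CPM, lies far above the rest of its gene.

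The main comparison asked whether the polysome-to-total ratio of each mRNA, its translation efficiency (TE), differed between shPRRC2B and shCtrl cells. YWHAG and YWHAZ were TE-down, no member was TE-up, and YWHAQ and YWHAH had TE changes close to 0. Calls required a log2 change past 0.5 in either direction together with an adjusted p under 0.05, from the quasi-likelihood test of edgeR, adjusted by Benjamini-Hochberg over all 18166 genes. Of all genes tested, 16.4% were TE-down and 10.7% TE-up at these thresholds, against 2 and 0 of the 7 members, a count too small to be set apart from that background. The median log2 TE change was -0.59 over the members and -0.03 over all genes tested. The libraries are bulk RNA, so fewer cells with an mRNA and less of it per cell cannot be told apart.

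YWHAG, the gamma isoform, which is abundant in brain and muscle, showed the largest fall. Its level in total RNA was 163, 164 and 167 CPM in shCtrl replicates 1, 2 and 3 and 232, 241 and 211 CPM in shPRRC2B replicates. In polysome RNA the values were 32.6, 46.5 and 29.4 CPM for shCtrl and 19.8, 14.6 and 8.28 CPM for shPRRC2B cells. All shPRRC2B libraries thus lay above the shCtrl libraries in total RNA and below them in polysome RNA. The log2 TE change of YWHAG was -1.81 (SE 0.30, adjusted p = 3.90e-04, edgeR), a TE of 0.286 times that of shCtrl cells, and 887 genes had a lower value. The change in polysome RNA was -1.34 (SE 0.23, adjusted p = 1.32e-04, edgeR) and passed both thresholds, while that in total RNA, 0.47 (SE 0.20, adjusted p = 0.0809, edgeR), did not. With the 6 total libraries alone, the total change was 0.42 (adjusted p = 1.14e-05, edgeR) and missed the log2 threshold only. YWHAG was TE-down in all 25 alternative analyses, at -2.18 to -1.56 with 1 library left out and at -1.67 with the trend on transcript length removed.

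YWHAZ, the zeta isoform and the bound member, showed the other fall. In total RNA it stood at 499.9, 498 and 524 CPM in shCtrl replicates 1, 2 and 3 and at 668, 679 and 625 CPM in shPRRC2B replicates. In polysome RNA it stood at 285, 483 and 446 CPM in the control line and at 353, 303 and 178 CPM in shPRRC2B cells. The groups did not overlap in total RNA, where shPRRC2B cells were higher, and overlapped in polysome RNA, where shCtrl replicate 1 lay below shPRRC2B replicates 1 and 2. The ratios formed by replicate number were -0.81, -0.05 and -0.23 on the log2 scale in shCtrl cells and -0.92, -1.16 and -1.81 in shPRRC2B cells, with 0.11 between the nearest values of the lines. The log2 TE change was -0.91 (SE 0.29, adjusted p = 0.0285, edgeR), and 3198 genes had a lower value. The change in polysome RNA of -0.54 (SE 0.21, adjusted p = 0.0435, edgeR) was called, and that in total RNA of 0.37 (SE 0.21, adjusted p = 0.178, edgeR) was not. With the 6 total libraries alone, the total change was 0.33 (adjusted p = 8.50e-05, edgeR) and missed the log2 threshold only.

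The YWHAZ calls lay near the threshold. The TE call was lost in 9 of 25 alternatives, at -0.59 with the length trend removed and, with 1 library left out, at -0.90 without shCtrl total replicate 1, -0.90 without shCtrl total replicate 2, -0.80 without shCtrl polysome replicate 2, -0.87 without shCtrl polysome replicate 3, -0.90 without shPRRC2B total replicate 1 and -0.89 without shPRRC2B total replicate 2. The polysome call was lost in 16 alternatives, among them the removal of any 1 total RNA library and of shCtrl polysome replicate 2 (-0.48), shCtrl polysome replicate 3 (-0.55) and shPRRC2B polysome replicate 3 (-0.38).

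YWHAB, the beta isoform, did not pass the TE test at -0.59 (SE 0.24, adjusted p = 0.0710, edgeR). In total RNA it was 180.2, 181 and 205 CPM in shCtrl replicates and 278, 275 and 272 CPM in shPRRC2B replicates, with no overlap. It rose there by 0.55 on the log2 scale (SE 0.17, adjusted p = 0.0169, edgeR), which made it the only member called in total RNA. In polysome RNA it was 134, 183 and 119.6 CPM for shCtrl and 177, 133 and 113 CPM for shPRRC2B cells, and the change was -0.05 (SE 0.17, adjusted p = 0.859, edgeR). YWHAB was TE-down at -0.67 when shCtrl polysome replicate 1 was left out, at -0.74 when shCtrl polysome replicate 3 was, and at -0.84 when shPRRC2B polysome replicate 1 was. Its total RNA value stayed between 0.49 and 0.61 with 1 library left out, and it was called only in the removals of the third total RNA library of either line.

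For YWHAQ and YWHAH, the theta and eta isoforms, neither fraction had a mean below that of shCtrl cells, and no change was called. YWHAQ was 274, 270.3 and 274 CPM in shCtrl total RNA and 356, 346 and 312 CPM in shPRRC2B total RNA. In polysome RNA it was 289.9, 404 and 296 CPM for shCtrl and 485, 402 and 323 CPM for shPRRC2B cells, and these groups overlapped. Its TE change was -0.02 (SE 0.22, adjusted p = 0.980, edgeR), and neither the total change of 0.31 (adjusted p = 0.137) nor the polysome change of 0.29 (adjusted p = 0.141) passed the test. With the 6 total libraries alone, the total change of YWHAQ was 0.26 (adjusted p = 0.00105, edgeR) and missed the log2 threshold only.

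YWHAH was 81.8, 90.2 and 86.8 CPM in shCtrl total RNA and 116, 112 and 114 CPM in shPRRC2B total RNA. In polysome RNA it was 137, 129 and 107 CPM for shCtrl and 172, 181 and 149 CPM for shPRRC2B cells, so that it was higher in the knockdown line in both fractions with no overlap. The changes of 0.40 in total RNA (SE 0.12, adjusted p = 0.0159, edgeR) and 0.43 in polysome RNA (SE 0.12, adjusted p = 0.00842, edgeR) were under the log2 threshold of 0.5, and the TE change was 0.03 (SE 0.17, adjusted p = 0.944). The sign of the YWHAQ TE change turned with the scaling, the filter and single libraries. That of the YWHAH TE change turned with the filter, the length trend and single libraries, not with the scaling. Exons of YWHAH share 105 bases with a coding gene on the same strand and 22 bases with YWHAH-AS1 on the other, and the part of these bases in the counts was not tested.

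**Figure D3:**
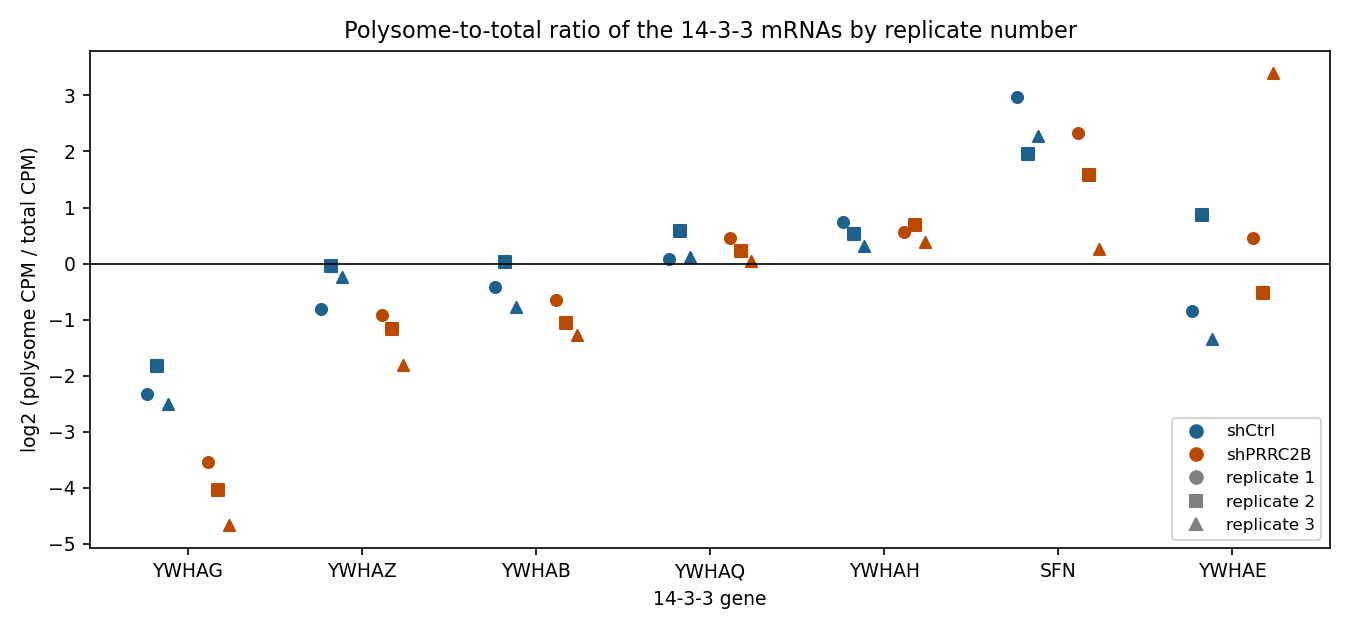
Log2 ratio of polysome to total CPM for each 14-3-3 gene, formed by replicate number, with shCtrl in blue, shPRRC2B in orange and marker shapes for the replicates. The orange points of YWHAG (-3.55 to -4.67) and YWHAZ (-0.92 to -1.81) all lie below the blue ones, and the other members overlap.

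Values above 0 numbered 6 of 7 members in total RNA, 4 in polysome RNA and 2 in TE. In total RNA 1 of 7 members was called higher and 0 were called lower, beside 14.9% of all genes higher and 14.1% lower. The 5 members YWHAB, YWHAG, YWHAH, YWHAQ and YWHAZ had no overlap between the groups of 3, all with shPRRC2B higher, while 63% of all genes did not overlap in either direction. The median log2 change of the members in total RNA was 0.40, against 0.04 for all genes. In polysome RNA 1 member (YWHAE) was called higher and 2 (YWHAG and YWHAZ) lower, beside 18.4% and 21.4% of all genes, and YWHAG and YWHAH did not overlap, as did not 43.1% of all genes. Ratios by replicate number did not overlap for 2 of 7 members, YWHAG and YWHAZ, and for 39.1% of the 17947 genes with such ratios.

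**Figure D4:**
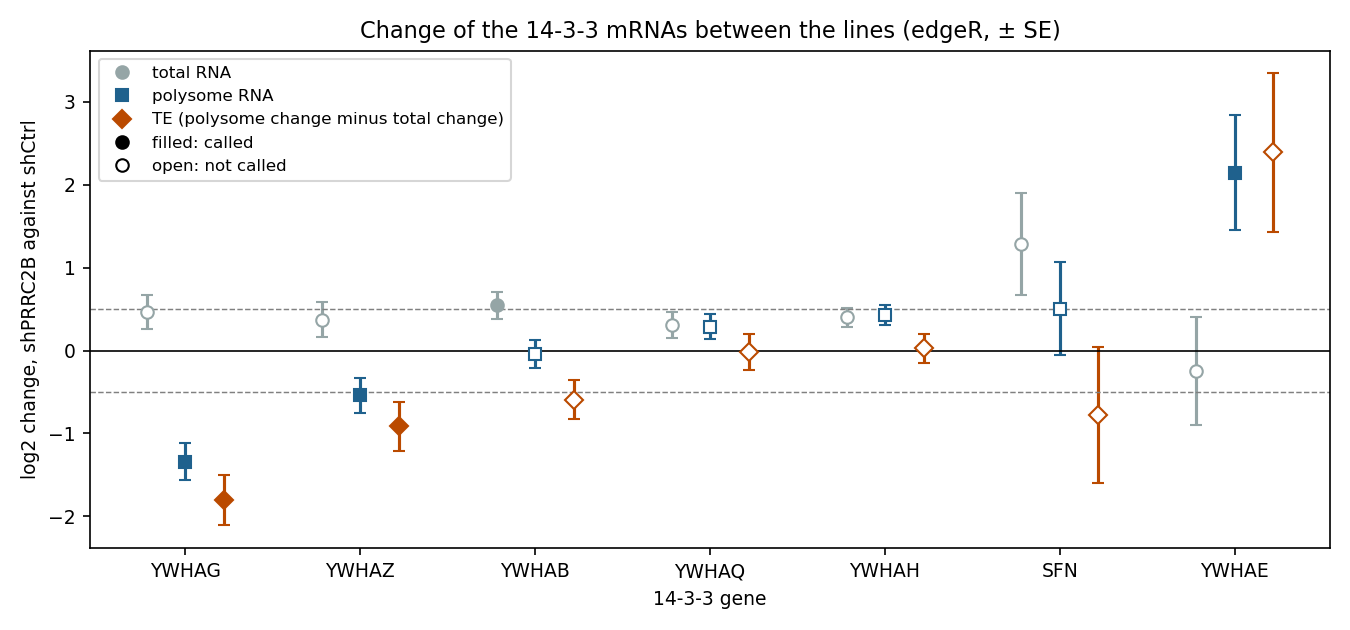
Log2 change between shPRRC2B and shCtrl cells of each 14-3-3 gene in total RNA, polysome RNA and TE, as points with the SE of the edgeR fit; filled points were called and dashed lines mark 0.5 in either direction. Total RNA values lie above 0 for every member except YWHAE (-0.24), while YWHAG and YWHAZ are below 0 in polysome RNA and TE.

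Within the family, the shares of YWHAZ in the lines lay nearer to each other in total RNA than in polysome RNA. A share of the 14-3-3 counts within a library does not depend on the scaling between libraries, and it is set by counts, so long mRNAs weigh more. YWHAZ made up 41.5, 41.2 and 41.4% of the 14-3-3 counts in shCtrl total RNA and 40.4, 40.9 and 40.6% in shPRRC2B total RNA. In polysome RNA its share was 32.3, 38.4 and 44.5% in shCtrl cells and 29.1, 29.1 and 21.6% in shPRRC2B cells, with no overlap. The mean share was lower by 0.754 percentage points in total RNA and by 11.8 points in polysome RNA, and the two-sided exact permutation test gave p = 0.1 for each of these 2 comparisons, which is the smallest value that 3 against 3 libraries allow. YWHAQ took 31.5 ± 1.76% of the polysome counts in shCtrl cells and 39.2 ± 0.641% in shPRRC2B cells, and YWHAH 12.2 ± 2.86% and 16.5 ± 2.096% (SD, n = 3). YWHAG took 3.44 ± 0.442% and 1.35 ± 0.315% of the polysome counts, after 13.4 ± 0.206% and 14.1 ± 0.415% of the total RNA counts. Summed over the family, polysome RNA held 1047 ± 191 CPM in the control line and 1027 ± 196 CPM in the knockdown line, a difference within the spread, while total RNA held 1226 ± 34.2 and 1617 ± 67.4 CPM.

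**Figure D5:**
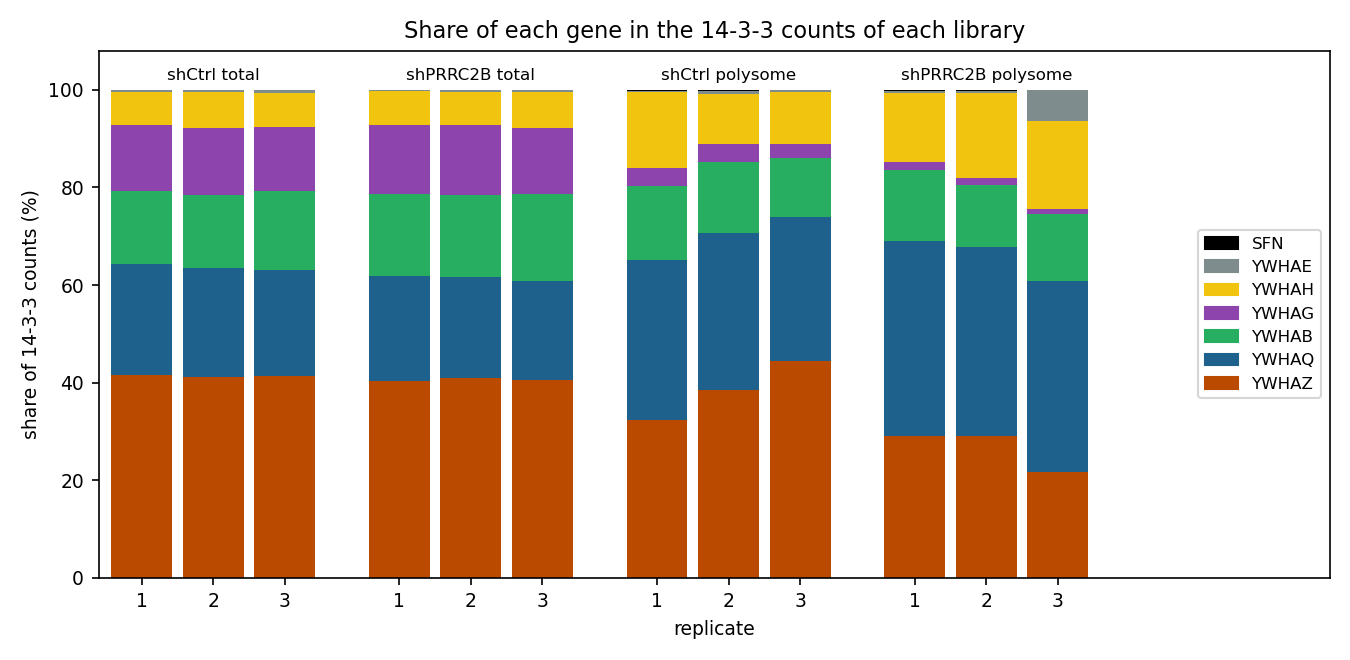
Share of each gene in the 14-3-3 counts of each of the 12 libraries, in percent, stacked to 100 and grouped by line and fraction. In the 6 total RNA columns YWHAZ takes 40.4 to 41.5%, and in the polysome columns of shPRRC2B cells YWHAZ takes 21.6 to 29.1%, against 32.3 to 44.5% in shCtrl cells.

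The members also differed in how much of their RNA was on polysomes in a single line. Among all genes, 39.8% had less and 32.5% more polysome than total RNA in shCtrl cells at the thresholds above, with a median log2 ratio of -0.22. In shCtrl cells YWHAG had a log2 ratio of -2.19 (SE 0.21, adjusted p = 4.37e-08, edgeR), the lowest of the family, followed by YWHAB at -0.37 and YWHAZ at -0.33, which did not pass the test. SFN had the highest ratio at 2.24 (SE 0.63, adjusted p = 0.00372, edgeR), and YWHAH had 0.53 (SE 0.12, adjusted p = 7.27e-04, edgeR), so that 2 members were called higher and 1 lower. In shPRRC2B cells, where 42.3% of genes were called lower and 36.6% higher, YWHAG (-3.99), YWHAZ (-1.24) and YWHAB (-0.96) were called lower, and YWHAH (0.56), SFN (1.46) and YWHAE (2.05) higher.

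A value of 0 on this scale depends on how the fractions are lined up. With library totals in place of TMM the median gene moved to -1.22 in shCtrl and -1.16 in shPRRC2B cells, and YWHAH then had -0.47 and -0.39 and YWHAQ -0.72 and -0.68 in place of 0.27 and 0.26, each still above the median gene. YWHAG stayed the lowest member under both scalings. Without shCtrl total replicate 1 the YWHAH ratio in shCtrl cells was 0.49 and without shCtrl polysome replicate 1 it was 0.44, both under the threshold. In shPRRC2B cells it was 0.47 without polysome replicate 1 and 0.47 without polysome replicate 2. The SFN ratio in shPRRC2B cells was not called without total replicate 1 (1.21), total replicate 3 (1.47), polysome replicate 1 (1.33) or polysome replicate 2 (1.05), and YWHAB in shCtrl cells was called lower without polysome replicate 2 (-0.57). With the trend on transcript length removed, the YWHAZ ratio in shPRRC2B cells was -0.076 (adjusted p = 0.737, edgeR) and no longer called, that of YWHAE was 1.01 (adjusted p = 0.159, edgeR), and the SFN ratio in shCtrl cells was 0.64 (adjusted p = 0.378, edgeR). Under that setting YWHAH (-0.56 in shCtrl and -0.81 in shPRRC2B cells) and YWHAQ (-0.40 and -0.61) lay below the median gene (-0.25 and -0.28). YWHAH was then called lower in both lines and YWHAQ in shPRRC2B cells. With library totals the ratios of YWHAE (1.07) and SFN (0.53) in shPRRC2B cells and of SFN in shCtrl cells (1.27) were not called, while those of YWHAZ (-1.33) and YWHAB (-1.37) in shCtrl cells were called lower.

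SFN, the sigma isoform of epithelia, was near the floor of detection. Its raw counts in total RNA were 7, 16 and 2 in shCtrl replicates and 11, 33 and 20 in shPRRC2B replicates, and in polysome RNA 22, 21 and 6 in shCtrl and 30, 37 and 11 in shPRRC2B replicates. The groups overlapped in both fractions. Neither the total change of 1.29 (SE 0.61, adjusted p = 0.114, edgeR) nor the TE change of -0.78 (SE 0.82, adjusted p = 0.518, edgeR) passed the test. The total change was called at 1.24 (adjusted p = 0.0350) with the 6 total libraries alone and at 1.60 (adjusted p = 0.0416) with the length trend removed and a block for the replicate number (both edgeR).

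YWHAE, the epsilon isoform, is abundant in most tissues but had few counts here. Its raw counts in total RNA were 134, 118 and 123 in shCtrl and 87, 161 and 113 in shPRRC2B replicates, and in polysome RNA 30, 72 and 30 in shCtrl and 65, 42 and 546 in shPRRC2B replicates. A single library, shPRRC2B polysome replicate 3, held 51.9 CPM, which was 6.65 times the highest other polysome library. Of the 8459 gene names with at least 100 counts in that library, 2 stood over 5 times above every other polysome library, YWHAE and BOLA2B, a search made after the YWHAE values were seen. The polysome change of 2.15 (SE 0.70, adjusted p = 0.0187, edgeR) was called, although the groups overlapped, and was -0.017 without that library. It was also not called without shCtrl polysome replicate 1 (1.80) or shCtrl polysome replicate 3 (1.88). The TE change of 2.39 (SE 0.95, adjusted p = 0.0721, edgeR) was 0.29 without shPRRC2B polysome replicate 3, and was called without shPRRC2B polysome replicate 1 (2.80) or replicate 2 (2.85), while the called ratio of 2.05 in shPRRC2B cells was -0.070 without replicate 3.

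The sequence of YWHAE (chromosome 17, 1344275 to 1400222, minus strand) has a second copy in GRCh38. Its whole canonical transcript of 2052 nt is present without a difference on an alternate contig of 391357 bases, and no other member has such a copy. The match of this contig to chromosome 17 begins at 960762 and ends at 1449317. The contig is shorter than that stretch, so part of the stretch is not on it. Which of the genes below lie on the contig was not tested. Read pairs that map to more than 1 place were not counted, and whether the index used for mapping held alternate contigs is not given in the sources used here. Of the other coding genes wholly within that stretch of chromosome 17, TIMM22 and BHLHA9 had 0 counts in all 12 libraries, TRARG1 at most 2 and ABR 3 to 174. CRK, which reaches over its end, had 11 to 308 counts, and the next coding genes beyond it, MYO1C (211 to 3482 counts), INPP5K (223 to 549) and PITPNA (407 to 2064), were counted in every library. These genes were chosen after values of the stretch were seen, and the part of the copy in the low YWHAE counts was not tested. YWHAEP1, a pseudogene of YWHAE, had 0 counts in shPRRC2B polysome replicate 3 and 5 to 36 in the other libraries.

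Pseudogenes took few counts of the other members. Of 24 further entries whose names begin with YWHA, 14 had any count and 3 (YWHAEP1, YWHAZP3 and YWHAZP4) exceeded 10 counts in a library, with a maximum of 54 for YWHAZP3. YWHAZ has 4 other places in the genome that match at least 50% of its length at 90% identity or more, the closest at 95.7%, and YWHAQ has 1 at 91.2%. How many YWHAZ or YWHAQ pairs were lost to these places was not tested.

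The genes whose levels followed YWHAZ most closely over the 12 libraries were AASDHPPT, which adds the phosphopantetheine group to acyl carrier proteins (Pearson r = 0.985), MAPK1IP1L (0.983), FAM171B (0.982), PAFAH1B2, a subunit of the platelet-activating factor acetylhydrolase (0.978), and APOBEC3C, a cytidine deaminase (0.978). These are the 5 highest of 10050 genes whose mean reached 10 CPM, and the libraries share fraction and line within each group, so r is given as a description. All 5 were TE-down, beside 16.4% of all genes, with log2 TE changes of -1.01, -1.20, -1.67, -1.70 and -1.10. These changes come from the same libraries as r, so a fall like that of YWHAZ follows in part from the choice of genes. Among the members, YWHAG had r = 0.905 with YWHAZ, exceeded by 339 genes, and YWHAB had 0.853. YWHAQ (-0.14), SFN (-0.44), YWHAE (-0.51) and YWHAH (-0.61) had values below 0.

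The proteins that 14-3-3 dimers bind, and the kinases that phosphorylate the docking motifs, were taken from a list of 58 genes, all of which were tested. Of them 17 were TE-down (29.3%, beside 16.4% of all genes) and 4 TE-up (6.9%, beside 10.7%), with a median log2 TE change of -0.35. The median canonical transcript of the list is 4347 nt, and with the length trend removed 8 genes were TE-down (13.8%, beside 12.1% of all genes under that setting). Leaving out 1 library changed these counts. TE-down genes numbered 11 (19%) when total replicate 1 or 3 of shCtrl cells was absent, beside 12.9% and 13.9% of all genes. They numbered 9 (15.5%) when total replicate 1 or 2 of shPRRC2B cells was, beside 13.5% and 12.7%. The highest count, 22 (37.9%, beside 19.3%), came without shPRRC2B polysome replicate 1. TE-up genes numbered 1 (1.72%) when polysome replicate 2 or 3 of shCtrl or polysome replicate 1 or 3 of shPRRC2B cells was absent, and 2 (3.45%) when total replicate 2 of either line or polysome replicate 2 of shPRRC2B cells was. Over the removals of 1 library, 12.7% to 20.1% of all genes were TE-down and 7.13% to 14.1% TE-up. Over the other alternatives run for the lists, 8.86% to 19.1% of all genes were TE-down. The counts of the lists below stand beside these shares. No test was made of the list as a whole.

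Of 14 clients in growth signalling, 3 were TE-down (21.4%, beside 16.4% of all genes) and 2 TE-up (14.3%, beside 10.7%). The TE-up count was 1 without polysome replicate 2 or 3 of shCtrl or polysome replicate 1 or 3 of shPRRC2B cells. Apart from the removals of 1 library, the alternatives gave 0 to 4 TE-down genes. For SOS1, the exchange factor that loads RAS with GTP, TE fell by 1.31 on the log2 scale (SE 0.26, adjusted p = 0.00130, edgeR), from 12.5 ± 1.82 to 5.83 ± 1.75 CPM in polysome RNA (SD, n = 3). TBC1D4, a RAB GTPase-activating protein in insulin signalling, fell by 1.14 (SE 0.23, adjusted p = 0.00147, edgeR).

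Of 10 clients in the cell cycle and cell death, 3 were TE-down (30%, beside 16.4% of all genes) and 1 TE-up (10%, beside 10.7%). The TE-up count was 2 without shCtrl polysome replicate 1, 1 without total replicate 3 of shCtrl or total replicate 1 of shPRRC2B cells, and 0 without any other single library. For MDM4, a negative regulator of apoptosis, TE fell by 1.55 (SE 0.31, adjusted p = 0.00157, edgeR), with 31.3 ± 12.5 CPM in polysome RNA of shCtrl and 7.43 ± 1.89 CPM of shPRRC2B cells. The TE of CDC25A, the phosphatase that activates cyclin-dependent kinases, fell by 0.79 (SE 0.21, adjusted p = 0.00949, edgeR).

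Of 10 clients in transcription, 5 were TE-down (50%, beside 16.4% of all genes) and 0 TE-up (0%, beside 10.7%). Apart from the removals of 1 library, the alternatives gave 2 to 5 TE-down genes. TE-down genes of this list numbered 3 without total replicate 1, total replicate 3 or polysome replicate 3 of shCtrl cells or polysome replicate 3 of shPRRC2B cells, and 2 without total replicate 1 or 2 of shPRRC2B cells. The FOXO factors are held in the cytoplasm by 14-3-3 after phosphorylation by AKT, and for FOXO1 TE fell by 1.60 (SE 0.38, adjusted p = 0.00518, edgeR) and FOXO3 by 1.12 (SE 0.36, adjusted p = 0.0276, edgeR). WWTR1 (TAZ), a coactivator of the Hippo pathway, fell by 1.55 (SE 0.30, adjusted p = 0.00119, edgeR), at 9.61 ± 2.59 CPM in polysome RNA of shCtrl and 3.82 ± 1.26 CPM of shPRRC2B cells.

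Of 9 clients in polarity and the cytoskeleton, 3 were TE-down (33.3%, beside 16.4% of all genes) and 0 TE-up (0%, beside 10.7%). These were PPP1R12A, the targeting subunit of myosin phosphatase (-1.33, adjusted p = 0.0155), MARK2, a polarity kinase (-0.62, adjusted p = 0.0388), and ARHGEF2, an exchange factor for RHOA (-0.59, adjusted p = 0.0217, all edgeR). TE-down genes numbered 1 without total replicate 1 of either line or total replicate 2 of shPRRC2B cells. Apart from the removals of 1 library, the alternatives gave 0 to 4.

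Of 15 kinases that write 14-3-3 docking sites, 3 were TE-down (20%, beside 16.4% of all genes) and 1 TE-up (6.67%, beside 10.7%). The TE-down count was 6 without shPRRC2B polysome replicate 1, where 19.3% of all genes were TE-down. It was 1 without any of the shCtrl total replicates, without total replicate 1 or 2 or without polysome replicate 2 or 3 of shPRRC2B cells. The TE-up count was 2 without shCtrl polysome replicate 1, 1 without total replicate 1 or 3 of shCtrl or total replicate 3 of shPRRC2B cells, and 0 without any other single library. LATS1, the Hippo kinase that phosphorylates YAP1 and WWTR1, had 49.6 ± 7.35 CPM in total RNA of shCtrl and 70.5 ± 3.35 CPM of shPRRC2B cells, but 17.4 ± 4.64 and 7.51 ± 0.932 CPM in polysome RNA. Its TE fell by 1.71 (SE 0.26, adjusted p = 1.73e-04, edgeR). The TE of PRKACA, a catalytic subunit of protein kinase A, fell by 0.62 (adjusted p = 0.0363, edgeR), and that of AKT1 rose by 0.50 (adjusted p = 0.0296, edgeR). Of the partners named here, CDC25A, FOXO1, WWTR1 and LATS1 were called in all 25 alternatives. The call was lost for AKT1 in 15, MARK2 in 13, PRKACA in 10, FOXO3 in 9 and ARHGEF2 in 6. It was also lost for TBC1D4, MDM4 and PPP1R12A in 2 each and for SOS1 in 1.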

How the data were processed

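The study's total RNA and polysome RNA were sequenced as read pairs from 12 libraries. The authors deposited raw counts of read pairs, 1 table of gene names by libraries, without normalization. Per the study's methods and the submitters' processing notes, reads were trimmed (Trimmomatic 0.36), mapped to GRCh38 (HISAT2 2.1.0 in the notes) and counted by featureCounts (Subread 2.0.1) on GENCODE 38 gene names, without strand and without pairs that mapped to more than 1 place. Groups were taken from the sample labels. The table held 0 columns of no sample. Library totals, 9855734 to 20837542 counts, set the precision, and no share of counts is given with an interval, since the errors are SDs over libraries or SEs of the model.

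The counts were tested in R 4.3.3 with edgeR 4.0.16: filterByExpr with a minimum count of 10, TMM over the 12 libraries together, then glmQLFit and glmQLFTest on the 4 groups, unblocked. From this fit came the change in total RNA, in polysome RNA and in TE, and the polysome-to-total ratio in each line. P-values were adjusted by Benjamini-Hochberg over 18166 genes, and calls needed a log2 change past 0.5 besides an adjusted p under 0.05. CPM used the TMM library sizes. Ratios by replicate number are descriptions, since same-numbered libraries did not deviate together (correlations of their deviations from the group means between -0.050 and 0.050). Shares within the family were compared by a two-sided exact permutation test. The fit was tested on simulated counts.

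The members and the lists of partners and markers were chosen with earlier results of these data known. The text names all members, the 3 called partners with the largest TE change per list at a mean of 10 CPM or more, and the 5 genes with the highest r to YWHAZ (log2 CPM, prior count 1). Some partners that the rule names are not reported here. Lengths, positions and sequences came from GENCODE 44 and GRCh38, whereas the counts used GENCODE 38. Other genomic copies were sought with minimap2 2.31-r1302. From the study's supplementary lists, site positions and membership of the bound list were read. The alternatives were DESeq2 1.42.0, its size factors (RLE), library totals, TMM within each fraction, genes with at least 1 count or with at least 10 counts in every library, limma 3.58.1 on log2(CPM + 1), blocks for the replicate number, removal of the trend on transcript length (lowess, span 0.3, lengths known for 86.77% of genes), no minimum change, 1 fraction alone (6 libraries) and each library left out. With the block for replicates within each line, the changes in total RNA and in polysome RNA refer to replicate 1 of each line. TE changes and ratios under that block do not.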

Additional observations from a re-analysis of the deposited data

Results flagged for a closer look

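Among the members, the difference between the lines itself differed between polysome RNA and total RNA, by the interaction term of the edgeR fit, for YWHAG and YWHAZ. The difference of the log2 changes was -1.81 for YWHAG (-1.34 in polysome RNA and 0.47 in total RNA, adjusted p = 3.90e-04) and -0.91 for YWHAZ (-0.54 and 0.37, adjusted p = 0.0285). Formed by replicate number, the ratios of both genes were lower in 3 of 3 shPRRC2B replicates than in any shCtrl replicate. Such ratios did not overlap, in either direction, for 39.1% of all genes that had them. Same-numbered libraries did not deviate together, and the labels do not say whether they share a culture, so this separation is a description. No outlier test was made within the groups, which hold 3 libraries each.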

How the results depend on the processing

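In these 3 against 3 libraries, the fall of YWHAG in TE and in polysome RNA kept its call in every alternative run for it. Of the calls, TE-down members numbered 1 with library totals, with the length trend removed and with the length trend removed in the fit with the replicate block, since YWHAZ was lost (-0.84, -0.59 and -0.60, adjusted p = 0.0521, 0.133 and 0.142), and 1 to 3 with 1 library left out. In the same order, 2620, 2200 and 2024 of 18166 genes were TE-down, and 2315 to 3652 with 1 library left out. TE-up members numbered 1 (YWHAE) with every gene with at least 1 count and 0 to 1 with 1 library left out. Among all genes, 1837 of 36618 were TE-up in the former setting and 1295 to 2558 of 18166 in the removals. Members higher in total RNA numbered 0 with library totals, with TMM within each fraction and with shPRRC2B polysome replicate 3 and shCtrl polysome replicate 1 both left out (an alternative chosen after the data were seen), 3 with the block for replicates within each line, 2 with the length trend removed and the replicate block, with no minimum change and with the 6 total libraries alone, and 0 to 1 with 1 library left out. Under the block within each line, changes in total RNA and in polysome RNA refer to replicate 1 of each line. The counts of that setting, here and below, are therefore no block-adjusted result. In the order of these settings, 2143, 2357, 2631, 1724, 2537, 3360 and 2897 of 18166 genes were higher, and 2104 to 2584 with 1 library left out. Members lower in polysome RNA numbered 1 with library totals, TMM within each fraction, the block within line, the length trend removed (with or without the replicate block) and the 6 polysome libraries alone, and 1 to 2 with 1 library left out. The genes called lower there numbered 3993, 3796, 2353, 3228 (with the block), 3330 (without it) and 2771 of 18166, and 3737 to 4558 with 1 library left out. Members higher in polysome RNA numbered 0 with limma, the replicate block, the block within line and the length trend removed with the block, 2 with no minimum change, and 0 to 1 with 1 library left out. In this order, 3590, 3228, 1705, 3167 and 3812 of 18166 genes were higher, and 2491 to 3353 with 1 library left out. For polysome against total RNA in shCtrl cells, 0 members were higher and 4 lower with library totals and with TMM within each fraction, 1 higher and 2 lower with every gene with at least 1 count and with the length trend removed (with or without the block), and 1 higher with both libraries left out. Of all 18166 genes, library totals called 3211 higher and 10675 lower, and TMM within each fraction 3189 and 10683. With at least 1 count, 5974 of 36618 genes were higher and 8515 lower. The length trend removed gave 4568 higher and 6641 lower without the block and 4441 and 6612 with it. With both libraries left out, 5832 were higher. In shPRRC2B cells 0 members were higher under library totals, TMM within each fraction and the length trend removed (with or without the block). The genes called higher there numbered 4283, 4296, 5171 (with the block) and 5256 (without it) of 18166. With 1 library left out, shCtrl cells had 1 to 2 members higher and 1 to 2 lower, and shPRRC2B cells 1 to 3 higher and 3 lower. Of 18166 genes, 5665 to 5907 were then higher and 6901 to 7279 lower in shCtrl cells. In shPRRC2B cells 6371 to 6648 were higher and 7476 to 7922 lower. Of the 58 partners 8 (13.8%, beside 12.1% of all genes) were TE-down with the length trend removed and 7 (12.1%, beside 11.1%) with the block as well. With 1 library left out 9 to 22 were TE-down (15.5% to 37.9%, beside 12.7% to 20.1% of all genes). In those removals 1 to 6 were TE-up (1.72% to 10.3%, beside 7.13% to 14.1%).

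Signs turned as follows. The YWHAQ TE change was 0.040 with library totals, 0.048 with TMM within each fraction, 0.049 with at least 10 counts in every library, 0.016 with both libraries left out, and -0.23 to 0.12 with 1 left out. The YWHAH TE change was -0.024 with at least 1 count and -0.25 with the length trend removed, with the block and without it, and -0.11 to 0.073 with 1 library left out. The PRRC2B TE change of 0.16 was -0.042 without shCtrl polysome replicate 1 and -0.14 to 0.30 over all removals of 1 library. The YWHAE total change was 0.076 without shCtrl total replicate 3 and -0.44 to 0.076 over all removals, and its polysome change was -0.017 to 2.65 over them, the lowest without shPRRC2B polysome replicate 3, and -0.28 with both libraries left out. The YWHAB polysome change was 0.22 with the block within line, where it refers to replicate 1 of each line. It was 0.066 without shCtrl polysome replicate 2, 0.014 without shPRRC2B polysome replicate 3, and -0.35 to 0.066 over all removals. The polysome-to-total ratio in shCtrl cells, under library totals, TMM within each fraction, the length trend removed and the length trend with the block, was -0.47, -0.48, -0.56 and -0.57 for YWHAH and -0.72, -0.73, -0.40 and -0.41 for YWHAQ, and the last pair of settings gave 0.52 and 0.51 for YWHAZ. In shPRRC2B cells the 4 settings gave -0.39, -0.39, -0.81 and -0.82 for YWHAH and -0.68, -0.68, -0.61 and -0.62 for YWHAQ, the last pair gave -0.51 and -0.63 for SFN, and YWHAE was -0.070 without shPRRC2B polysome replicate 3, -0.070 to 2.50 over all removals, and -0.071 with both libraries left out. The share of YWHAZ in total RNA differed by 0.408 percentage points when set against YWHAE alone, and by -0.889 to -0.630 points with 1 library left out, the polysome share by -14.9 to -8.78. Apart from the scalings and the length trend, which change the reference of a ratio by construction, the cause of these changes was not tested.

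No pairing by replicate number was seen in the deviations of the libraries, and whether same-numbered libraries share a culture is not in the labels. With the replicate block the YWHAG TE change was -1.81 (adjusted p = 3.95e-04) and that of YWHAZ -0.92 (adjusted p = 0.0350), and YWHAE in polysome RNA lost its call (1.65, adjusted p = 0.0519). SFN could not be tested with at least 10 counts in every library, so the counts of members were not run there. Depth limits SFN and YWHAE most.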
